A study of Drosophila melanogaster with 12 samples.

Results

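The Toll, IMD and JNK signalling genes of Drosophila melanogaster are the proteins that stand between microbial recognition and immune gene transcription. They were listed by name as 37 genes, in 8 groups by role: the IMD cascade, its ubiquitin enzymes, its negative regulators, the Toll recognition proteins, the Toll ligand, receptors and relay, the Toll inhibitor and NF-κB factors, co-activators and chromatin factors, and a JNK module. Of these, 34 had a probe set that the platform table pairs with that gene alone, out of 11982 genes measured in this way, and the brightest probe set stands for each gene. Tak1, eff and GNBP1 are not analysed here. All 34 passed the filter on dim probe sets in every comparison.

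RNA was hybridized to 12 Affymetrix Drosophila Genome 2.0 arrays in 4 groups of 3, each array from a pool of 20 females aged 7 to 12 days. The groups were nub1 gut, wt gut, nub1 carcass and wt carcass, where the carcass is the body left after removal of head and gut. The nub1 flies came from 1 strain that carries nub1, b1 and pr1 together, and nub1 abolishes 1 protein form, Nub-PD, of the POU transcription factor gene nub. The wt flies are given as OregonR and w1118 in the sample descriptions and as OregonR alone in the series design, so the effect of nub1 cannot be told apart from that of the linked alleles or of the strain background. No group was infected or otherwise treated.

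In the IMD pathway, peptidoglycan from mostly Gram-negative bacteria is bound by receptors whose adaptor is Imd, and the signal runs through Fadd, the caspase Dredd, the Tak1 and Tab2 kinase complex and the IKK complex of key and IKKbeta to Relish (Rel), an NF-κB factor. In the Toll pathway, circulating recognition proteins trigger a protease cascade that cleaves Spätzle (spz), which binds the receptor Toll (Tl), and Myd88, tube (tub) and pelle (pll) then relieve the NF-κB factors dorsal (dl) and Dif from the inhibitor cactus (cact). JNK signalling branches from IMD at Tak1, passes through the kinase hemipterous (hep) to the AP-1 proteins Jra and kay, and is shut off by the phosphatase puckered (puc). In adult flies the IMD pathway is the main inducible defence of the midgut, and the fat body of the carcass responds through both NF-κB pathways.

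The values are MAS5 signals with a trimmed mean of 100 on every array, with medians of 7.81 to 14.9. They were fitted with limma as log2(signal + 10), and changed here means at least 2-fold with a Benjamini-Hochberg adjusted p, taken over all probe sets tested, under 0.05. All fold changes are on that log2 scale, which understates the change of dim genes, and are given with the SE of the fit. Dissection was checked on marker lists: 10 of 10 enterocyte genes were higher in gut than in carcass in both genotypes. Ovary transcripts reached some gut arrays, with a mean log2 signal of eggshell genes of 4.18, 9.37 and 5.97 on the nub1 gut arrays and 4.35, 8.13 and 9.99 on the wt gut arrays, against 11.23 to 11.56 on the carcass arrays. Genes of the male ejaculatory duct averaged 6.94 and 8.10 on nub1 gut replicates 1 and 3 and, less, 5.61 on nub1 carcass replicate 2. The remaining 9 arrays had 4.60 to 5.21, whereas accessory gland genes stayed at 3.74 to 4.04 throughout. Dup99B and Obp51a carried this on nub1 gut replicate 1 (444 and 296) and nub1 carcass replicate 2 (86.0 and 60.7). Ebp, EbpII and Sems were under 10 on both of these arrays, and EbpIII was at 1059 or more on every array. The brightest of 3 nub probe sets gave 420, 385 and 566 in nub1 gut, against 282, 203 and 317 in wt gut. Which nub transcripts it reads was not examined, so it is no check on the loss of Nub-PD.

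The first question was whether loss of Nub-PD moved the signalling machinery itself. In nub1 gut over wt gut, 3 of the 34 genes changed, 1 of them higher (pirk) and 2 lower (18w and GNBP3). This is 8.82% of the genes, against 9.28% of all probe sets tested (3.15% higher, 6.13% lower). In nub1 carcass over wt carcass none of the 34 reached both thresholds in limma, against 4.71% of all probe sets (2.77% higher, 1.94% lower), while 14 had an unadjusted p under 0.05 and 4 an adjusted p under 0.05. A t-test as named in the methods, run on the linear signals, called 1 gene in gut (pirk, higher) and 1 in carcass (GNBP3, lower). The median log2 fold change over the 34 genes was -0.08 in gut and -0.09 in carcass, beside -0.06 and -0.02 over all probe sets tested. In each tissue the 95% interval of 31 of the 34 genes lay within a 2-fold change in either direction. Such a share was not computed over all probe sets, so it cannot be called particular to these genes.

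**Figure D1:**
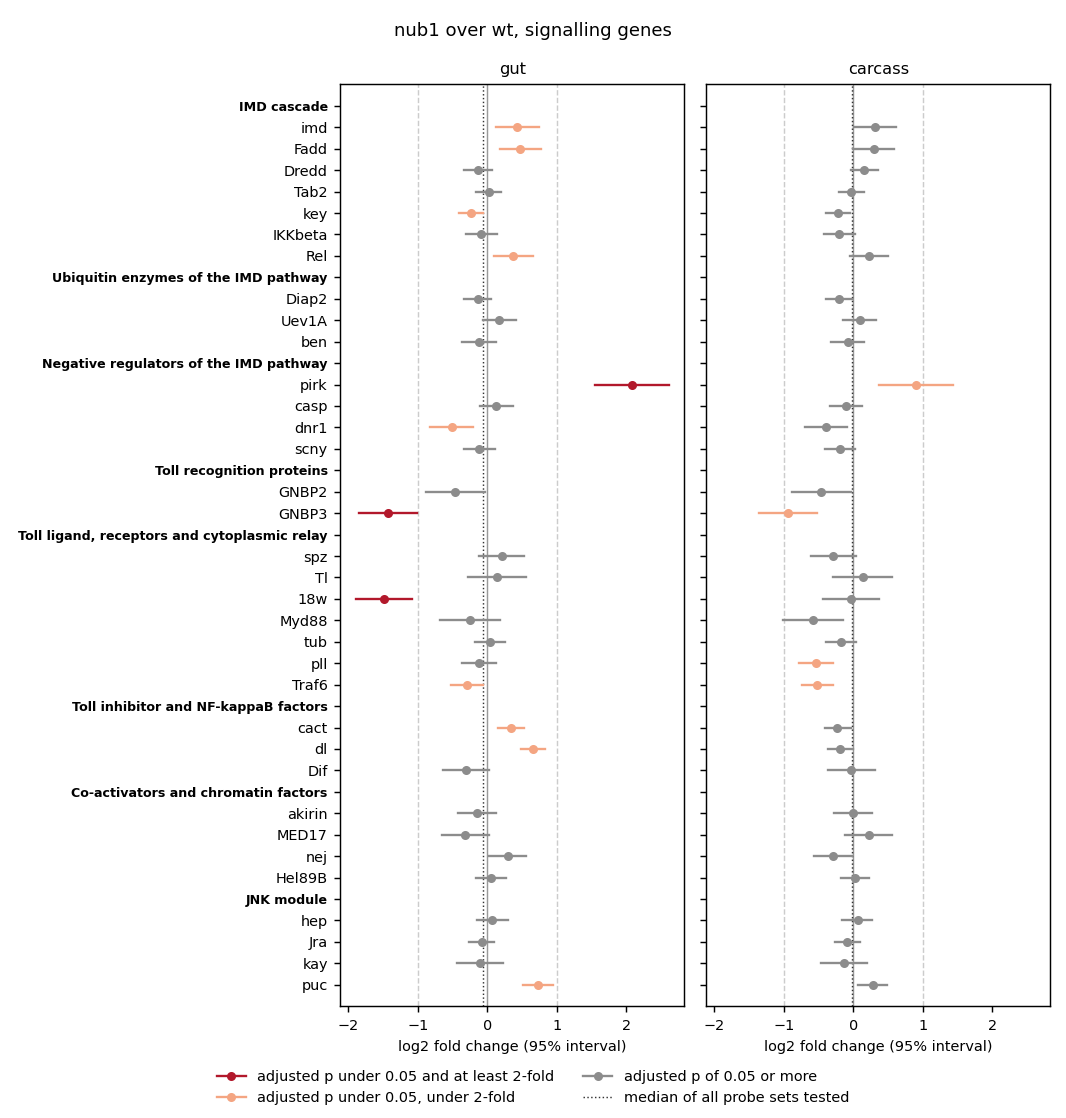
Log2 fold change of nub1 over wt (horizontal axis, with the 95% interval as a bar) in gut on the left and carcass on the right for the 34 genes, grouped by role. Grey dashed lines mark a 2-fold change and the dotted line the median of all probe sets tested. Only pirk, GNBP3 and 18w are drawn in dark red, all in gut.

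The number of genes that passed without the fold minimum depended on the fit. An adjusted p under 0.05 was reached by 12 of the 34 genes in gut (7 higher, 5 lower), which is 35.3% of them against 35.1% of all probe sets, and by 4 in carcass (1 higher, 3 lower), 11.8% against 15.6%. When each tissue was fitted on its own 6 arrays the counts were 5 in gut and 15 in carcass, and with the t-test 3 and 6. The signals of the nub1 and wt arrays did not overlap for 17 genes in gut (50% against 40.8% of all probe sets) and for 21 in carcass (61.8% against 45%). The nub1 effect itself differed between gut and carcass for 2 genes, pirk and 18w, 5.88% of the 34 against 6.56% of all probe sets (1.86% with a positive and 4.7% with a negative difference).

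The negative regulators of the IMD pathway held the gene with the greatest fold among the 34. The gene pirk encodes an Imd-binding protein that interrupts signalling at the receptor and is itself an IMD target. Its signal was 1140, 934 and 1228 in nub1 gut, against 303, 277 and 189 in wt gut. In nub1 carcass it was 54.1, 31.5 and 23.9, against 19.1, 15.1 and 8.95 in wt carcass. The groups do not overlap in either tissue, and all 3 nub1 arrays lie above all 3 wt arrays. The log2 fold change was 2.08 (SE 0.24, adjusted p = 5.24e-05) in gut and 0.90 (SE 0.25, adjusted p = 0.0261, short of 2-fold on this scale) in carcass. The difference between them, 1.18 (SE 0.35), had an adjusted p of 0.0435. That call was lost in 12 of 23 alternative settings, with adjusted p between 0.00318 and 0.248 over them, and leaving out single arrays gave adjusted p up to 0.105.

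The rise of pirk in nub1 gut was called in 25 of 25 alternatives, with values between 1.82 and 2.21. In carcass the ratio of the mean linear signals was 2.54, and pirk passed the 2-fold minimum with a pseudocount of 1 (1.27), at which the difference between the tissues was 0.85 (adjusted p = 0.248), or when nub1 carcass replicate 3 (1.10) or wt carcass replicate 1 (1.04) was left out. The mean nub1 carcass signal was 3.32% of the mean nub1 gut signal, and the excess of nub1 over wt carcass was 2.01% of it. Enterocyte genes averaged 8.08, 7.49 and 8.10 in log2 signal on the nub1 carcass arrays and 7.30, 7.47 and 7.20 on the wt carcass arrays. Of 10 such genes, 3 were called higher in nub1 carcass, where 2.77% of all probe sets were. In nub1 gut 3 of the 10 were also called higher than in wt gut, against 3.15% of all probe sets. Their excess of nub1 over wt carcass had a median of 0.47% of their nub1 gut mean, from -7.05% to 5.87%. Their summed signal ranged from 3989 to 7032 in nub1 carcass and from 5170 to 7258 in wt carcass. Their part in the carcass value of pirk was not tested.

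**Figure D2:**
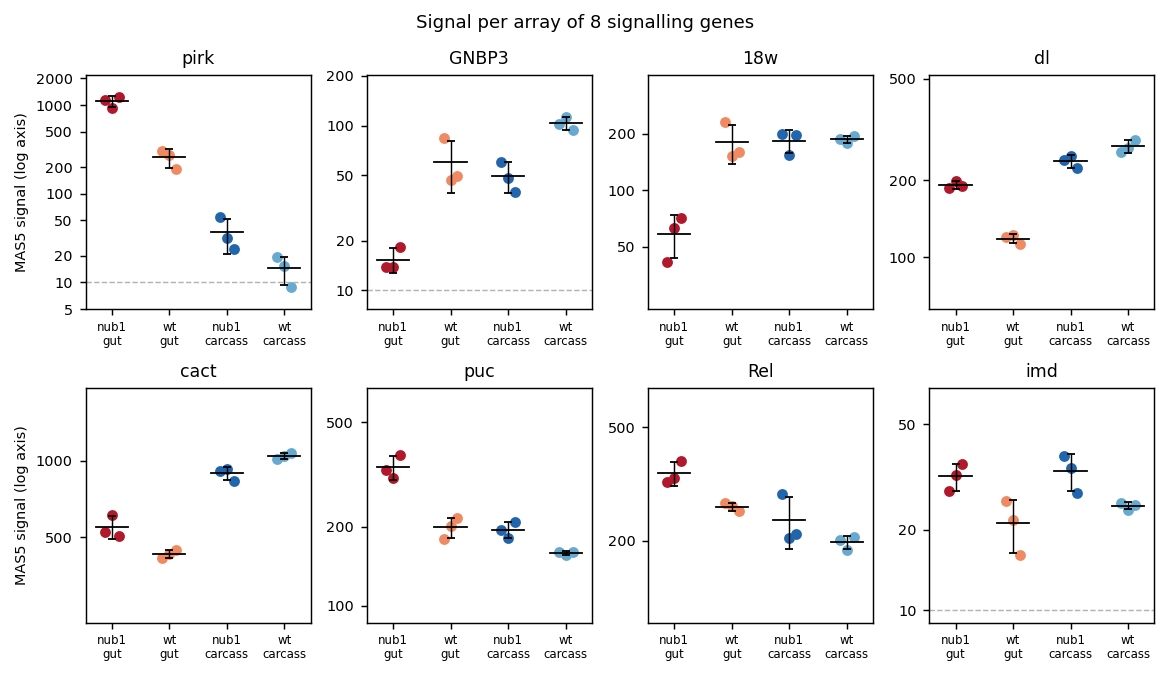
MAS5 signal on each array (vertical log axis) for 8 genes, with groups from left to right nub1 gut, wt gut, nub1 carcass and wt carcass. Points are arrays, the long bar is the mean and the error bar the SD of 3 arrays, and the dashed line marks a signal of 10. The nub1 gut arrays lie above the wt gut arrays for pirk, dl, cact, puc, Rel and imd and below them for GNBP3 and 18w.

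The other 3 negative regulators did not follow pirk. Defense repressor 1 (dnr1), a RING protein that restrains Dredd, had signals of 64.8, 45.7 and 69.4 in nub1 gut, against 89.8, 79.6 and 96.5 in wt gut. In nub1 carcass it had 26.2, 26.6 and 27.2, against 34.1, 44.0 and 37.04 in wt carcass. The nub1 arrays were the lower ones in both tissues without overlap. For dnr1 the fit gave -0.51 in gut (SE 0.14, adjusted p = 0.0152, short of 2-fold) and -0.39 in carcass (SE 0.14, adjusted p = 0.0817). The caspar gene (casp), whose product blocks cleavage of Relish, had 211, 268 and 279 in nub1 gut and 239, 227 and 220 in wt gut, which overlap. In nub1 carcass casp had 375, 401 and 365, against 372, 432 and 424 in wt carcass. Its log2 fold change was 0.13 in gut (95% interval -0.11 to 0.37) and -0.10 in carcass (-0.34 to 0.13). The deubiquitinase gene scny, which acts on Imd, had -0.12 in gut and -0.19 in carcass, with adjusted p of 0.404 and 0.273.

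In the IMD cascade itself none of the 7 measured genes changed in either tissue. The shares of all probe sets changed were 9.28% in gut and 4.71% in carcass, so no call among 7 genes is close to them. The 95% intervals ran from -0.41 to 0.77 in gut and from -0.42 to 0.61 in carcass. All 7 lay inside a 2-fold change in both tissues. In gut 3 genes had an adjusted p under 0.05 on the higher side and 1 on the lower side. That is 57.1% of the 7 genes, above the 35.1% of all probe sets, while in carcass it was 0% against 15.6%. The adaptor gene imd gave 28.01, 32.1 and 35.4 in nub1 gut, against 25.7, 21.8 and 16.2 in wt gut, and 38.0, 34.2 and 27.5 in nub1 carcass, against 25.4, 23.8 and 24.8 in wt carcass. All nub1 arrays were above the wt arrays of the same tissue. For imd the log2 fold change was 0.43 in gut (SE 0.14, adjusted p = 0.0333) and 0.31 in carcass (SE 0.14, adjusted p = 0.177). Fadd, the adaptor that joins Imd to Dredd, averaged 90.2 ± 20.3 in nub1 gut and 61.5 ± 8.88 in wt gut (SD of 3 arrays each), with a log2 fold change of 0.47 (adjusted p = 0.0186).

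Relish is the NF-κB factor at the end of this cascade and is also induced by it. Its signal was 321, 331 and 382 in nub1 gut, against 271, 265 and 254 in wt gut. It was 293, 205 and 211 in nub1 carcass, against 202, 186 and 205 in wt carcass. The gut groups were separate, and in carcass nub1 replicate 1 alone stood well above the wt arrays. For Rel it came to a log2 fold change of 0.37 in gut (SE 0.13, adjusted p = 0.0383) and 0.23 in carcass (SE 0.13, adjusted p = 0.285). The kinase subunit gene key was slightly lower in nub1 gut, at 302 ± 3.91 against 358 ± 30.7 in wt gut (log2 fold change -0.24, adjusted p = 0.0371). Dredd, Tab2 and IKKbeta had log2 fold changes between -0.13 and 0.02 in gut and between -0.20 and 0.16 in carcass, none with an adjusted p under 0.05. No gene of the cascade had a nub1 effect that differed between the tissues, with differences between -0.30 and 0.18.

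The ubiquitin enzymes attach the K63-linked chains on which the cascade is assembled. Diap2, the ligase for Imd, and Uev1A and ben, which form the conjugating enzyme, differed by -0.14, 0.17 and -0.12 in gut on the log2 scale, and by -0.21, 0.09 and -0.08 in carcass. None of the 3 had an adjusted p under 0.05, against 35.1% of all probe sets in gut and 15.6% in carcass. All intervals lay between -0.40 and 0.41.

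Among the Toll recognition proteins, GNBP3 was low in nub1 flies in both tissues. GNBP3 encodes a circulating protein that binds fungal beta-glucans. Its signal was 13.8, 14.0 and 18.4 in nub1 gut, against 84.0, 46.7 and 49.1 in wt gut, and 60.2, 48.4 and 39.5 in nub1 carcass, against 102, 113 and 93.8 in wt carcass. The groups were separate in both tissues, and the nub1 gut arrays came close to the background of 10. GNBP3 thus fell by 1.43 on the log2 scale in nub1 gut (SE 0.19, adjusted p = 0.000148) and was at -0.94 in nub1 carcass (SE 0.19, adjusted p = 0.005, short of 2-fold). The difference between the tissues, -0.48 (95% interval -1.08 to 0.11), had an adjusted p of 0.271. The carcass value reached 2-fold when nub1 carcass replicate 1 (-1.07) or wt carcass replicate 3 was left out, and the gut call was lost with a pseudocount of 32 (-0.93) and with the t-test of the methods (adjusted p = 0.101).

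The fat body is a known source of circulating immune proteins, and 2 of its 8 marker genes tested were called lower in nub1 gut. The summed signal of the list, mostly from the yolk protein genes Yp1, Yp2 and Yp3, was 7938 to 13940 in nub1 gut and 15810 to 20710 in wt gut. Not all went this way, as Lsp2 averaged 30.8 and bmm 601 in nub1 gut, against 13.4 and 572 in wt gut. In carcass the sums overlapped, at 19450 to 21860 in nub1 carcass and 20260 to 22960 in wt carcass, with 1 of 8 genes higher and none lower. In such bulk samples fewer cells of a type and less RNA per cell cannot be told apart, and the part of fat body in the gut value of GNBP3 was not tested. GNBP2, a relative of GNBP3, averaged 22.7 ± 3.95 in nub1 gut and 34.9 ± 4.08 in wt gut, and 25.4 ± 7.30 in nub1 carcass and 39.1 ± 12.4 in wt carcass. Its log2 fold change was -0.46 in both tissues, with adjusted p of 0.0872 and 0.151.

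The receptor 18-wheeler (18w), a Toll family member better known from development, fell in nub1 gut. Its signal was 41.6, 62.6 and 71.1 in nub1 gut, against 231, 153 and 160 in wt gut. In nub1 carcass it was 200, 154 and 199, against 188, 179 and 195 in wt carcass. The gut groups were far apart and the carcass groups overlapped. In the fit 18w was at -1.49 in gut (SE 0.19, adjusted p = 8.1e-05) and -0.03 in carcass (95% interval -0.44 to 0.37). The difference of -1.45 (SE 0.26, adjusted p = 0.00408) was called in 23 of 23 alternatives, between -1.86 and -1.20, while the gut call was lost in 1 of 25, the t-test of the methods (adjusted p = 0.0676), which was not run for the difference. Without the arrays that carry ejaculatory duct transcripts, which leaves 1 nub1 gut array, the gut value was -1.38.

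The ligand and receptor of the Toll pathway had smaller values. Toll (Tl) had 239, 407 and 210 in nub1 gut, against 237, 217 and 292 in wt gut, and 842, 786 and 774 in nub1 carcass, against 709, 753 and 718 in wt carcass. Its log2 fold change was 0.14 in each tissue, with adjusted p of 0.59 in gut and 0.751 in carcass. For spz it was 0.21 in gut and -0.29 in carcass, with adjusted p of 0.31 and 0.258. Of the cytoplasmic relay, pelle (pll), the IRAK-like kinase, was at 84.1, 77.4 and 66.7 in nub1 carcass, against 110, 115 and 119 in wt carcass (log2 fold change -0.54, SE 0.11, adjusted p = 0.00558), and at 36.0 ± 4.51 in nub1 gut and 40.0 ± 3.35 in wt gut (-0.12, adjusted p = 0.422). Traf6, a ubiquitin ligase that binds pelle, was at 137, 152 and 143 in nub1 carcass, against 211, 210 and 211 in wt carcass (-0.52, SE 0.10, adjusted p = 0.00354), and in gut its log2 fold change was -0.29 (adjusted p = 0.042). For both genes the carcass groups were well apart, though under 2-fold. The adaptor genes Myd88 and tub had -0.25 and 0.04 in gut and -0.58 and -0.18 in carcass, none with an adjusted p under 0.05.

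The inhibitor cactus and the factor dorsal had higher signals in nub1 gut, by less than 2-fold, and lower ones in nub1 carcass that did not pass the test. For dl the signals were 187, 199 and 190 in nub1 gut, against 120, 122 and 112 in wt gut, and 240, 249 and 224 in nub1 carcass, against 258, 269 and 289 in wt carcass. The gut groups were separate with the nub1 arrays higher, and the carcass groups were separate with the nub1 arrays lower. In log2 terms dl was at 0.65 in gut (SE 0.08, adjusted p = 8.89e-05) and -0.19 in carcass (SE 0.08, adjusted p = 0.158), and the difference of 0.84 (SE 0.12) had an adjusted p of 0.000763. For cact the signals were 527, 614 and 509 in nub1 gut, against 417, 430 and 447 in wt gut, and 915, 926 and 835 in nub1 carcass, against 1016, 1045 and 1075 in wt carcass. Here too the nub1 arrays were the higher in gut and the lower in carcass. The values for cact were 0.34 in gut (adjusted p = 0.00924), -0.23 in carcass (adjusted p = 0.0996) and 0.57 for the difference (SE 0.12, adjusted p = 0.00962).

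The dimmer probe sets of both genes gave other values. The second dl probe set, with means of 34.8 in nub1 gut and 36.0 in wt gut, had a log2 fold change of -0.06 in gut and 0.28 in carcass, a difference of -0.34. The second cact probe set had 0.40 in gut and 0.78 in carcass, a difference of -0.38. The sign of the tissue difference therefore depends on the probe set for both genes. Dif, the other Toll NF-κB factor, was near background, at 13.3, 15.2 and 7.59 in nub1 gut, against 17.1, 20.2 and 13.8 in wt gut, and at 16.4, 15.7 and 20.1 in nub1 carcass, against 16.4, 19.1 and 18.1 in wt carcass. The groups overlap in both tissues, and at these signals a difference in Dif was not detectable (95% intervals -0.64 to 0.03 in gut and -0.36 to 0.31 in carcass).

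In the JNK module the feedback phosphatase puc stood apart from the kinase and the AP-1 proteins. Puckered, a JNK target that switches JNK off, had 330, 307 and 376 in nub1 gut, against 181, 201 and 216 in wt gut. In nub1 carcass it had 194, 182 and 209, against 160, 156 and 160 in wt carcass. All nub1 arrays exceeded the wt arrays of their tissue. This gave a log2 fold change of 0.73 in gut (SE 0.10, adjusted p = 0.000163, short of 2-fold) and of 0.28 in carcass (SE 0.10, adjusted p = 0.0837), and the difference of 0.45 had an adjusted p of 0.0524. The kinase hep had 62.9, 61.3 and 66.9 in nub1 gut, against 53.6, 66.9 and 60.9 in wt gut, and 109, 114 and 113 in nub1 carcass, against 105, 100 and 119 in wt carcass. Its arrays overlapped in both tissues, with log2 fold changes of 0.07 and 0.06. Jra and kay had -0.08 and -0.11 in gut and -0.09 and -0.13 in carcass, with adjusted p of 0.475 or more in all cases.

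No change was called among the co-activators and chromatin factors, beside 9.28% of all probe sets in gut and 4.71% in carcass. Akirin, a nuclear cofactor of Relish, MED17 of the Mediator, the acetyltransferase nejire (nej) and the helicase Hel89B ranged in log2 fold change between -0.32 and 0.29 in gut and between -0.29 and 0.22 in carcass. None of the 4 had an adjusted p under 0.05, against 35.1% of all probe sets in gut and 15.6% in carcass. All intervals lay between -0.66 and 0.56.

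The second question was where the machinery is expressed in the first place. Gut over carcass, 5 of the 34 genes changed in nub1 flies (1 higher, 4 lower) and 9 in wt flies (2 higher, 7 lower). This is 14.7% against 38.4% of all probe sets tested in nub1 flies (15.6% higher, 22.7% lower), and 26.5% against 39.7% in wt flies (17.8% higher, 21.9% lower). Without the fold minimum 28 genes in nub1 flies and 26 in wt flies had an adjusted p under 0.05, that is 82.4% and 76.5%, against 82.8% and 82.3% of all probe sets. The gut and carcass arrays did not overlap for 28 genes in nub1 flies (82.4% against 83.9% of all probe sets) and for 27 in wt flies (79.4% against 86.5%). Both genotypes had the same sign for all 34 genes, and pirk, Tl and spz were called in both. The median over the 34 genes was -0.41 in nub1 flies and -0.38 in wt flies, beside -0.46 and -0.32 over all probe sets tested. With each array scaled to a common median instead, the medians of all probe sets became 0.03 and 0.19, and the calls became 6 higher and 1 lower in nub1 flies and 3 higher and 2 lower in wt flies. Directions between the tissues are therefore relative to the array scaling, and the values below are best read against those medians.

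**Figure D3:**
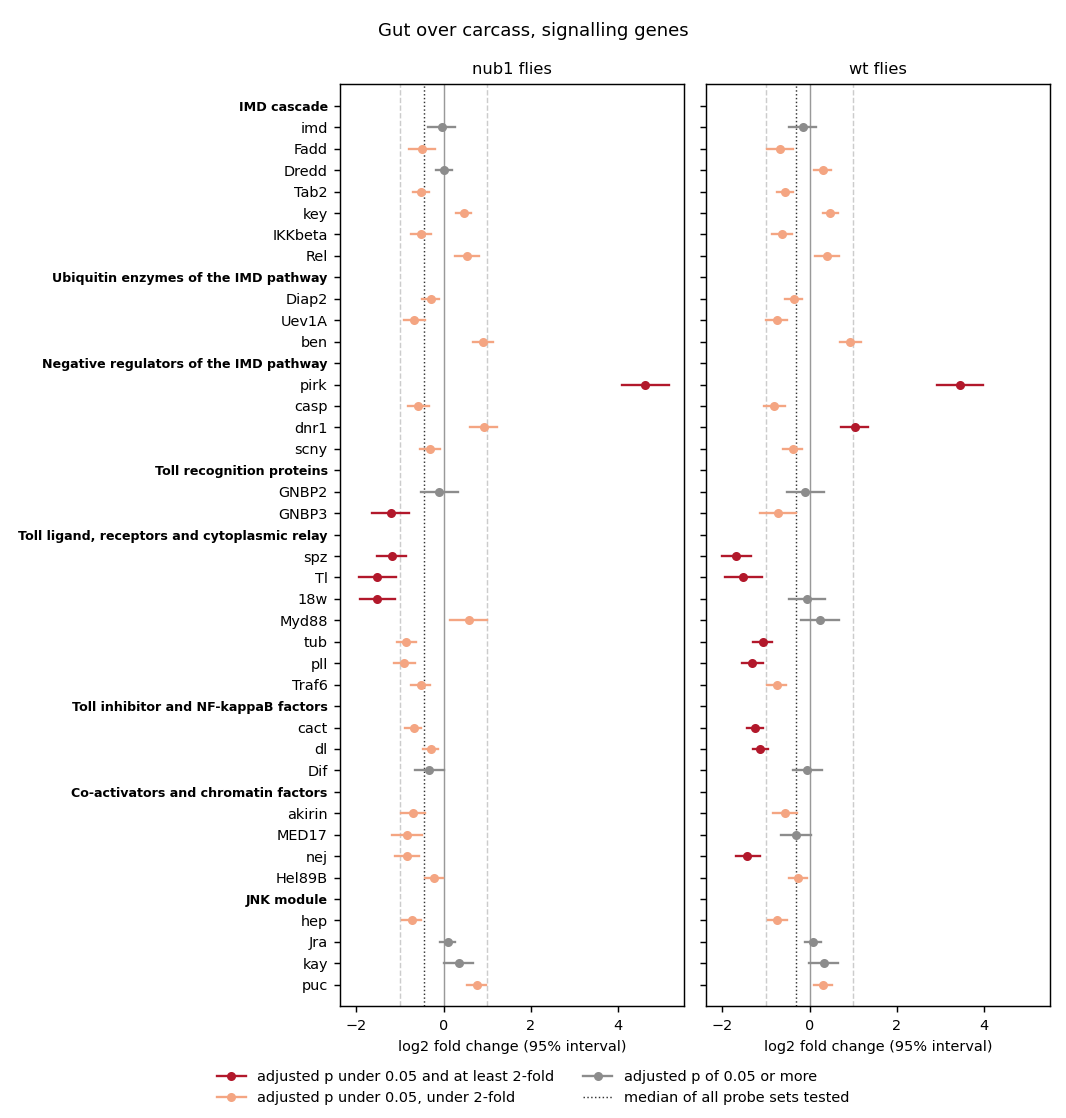
Log2 fold change of gut over carcass (horizontal axis, with the 95% interval as a bar) in nub1 flies on the left and wt flies on the right for the 34 genes, grouped by role. Grey dashed lines mark a 2-fold change and the dotted line the median of all probe sets tested. The IMD cascade lies between -0.68 and 0.54, pirk lies far to the right, and spz and Tl lie to the left in both genotypes.

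The IMD cascade gave signals in both tissues that differed by less than 2-fold. None of its 7 genes changed between gut and carcass, against 38.4% of all probe sets in nub1 flies and 39.7% in wt flies. In each genotype all 7 intervals lay within a 2-fold change. Rel and key were the higher in gut, with log2 fold changes of 0.54 and 0.46 in nub1 flies and 0.40 and 0.47 in wt flies (adjusted p up to 0.0115). Fadd, Tab2 and IKKbeta were the lower in gut, between -0.52 and -0.49 in nub1 flies and between -0.68 and -0.57 in wt flies. With common median scaling Tab2 in nub1 flies stood at 0.00 and key at 0.97, and Rel was called higher in nub1 gut (1.06). The ubiquitin-conjugating enzyme gene ben was higher in gut by 0.89 in nub1 flies and 0.93 in wt flies, while its partner Uev1A had -0.68 and -0.76.

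The inhibitor pirk was a gut gene in both genotypes, by a log2 fold change of 4.62 in nub1 flies (SE 0.25, adjusted p = 1.39e-08) and 3.44 in wt flies (SE 0.25, adjusted p = 1.46e-07). The lowest nub1 gut array was above the highest nub1 carcass array, and the same held in wt flies. The repressor dnr1 was also higher in gut, by 0.92 in nub1 flies (SE 0.14, adjusted p = 8.54e-05, short of 2-fold) and 1.03 in wt flies (SE 0.14, adjusted p = 3.3e-05). The wt call of dnr1 was lost without wt carcass replicate 1 or without wt gut replicate 3, at 0.97 each. Casp was the lower in gut, at -0.58 in nub1 flies and -0.81 in wt flies. For scny the values were -0.32 and -0.39, beside medians of -0.46 and -0.32 over all probe sets. With common median scaling scny turned to 0.19 and 0.12.

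The Toll ligand, receptor and relay were mostly lower in gut. Toll had a log2 fold change of -1.52 in nub1 flies (SE 0.19, adjusted p = 2.17e-05) and of -1.52 in wt flies (SE 0.19, adjusted p = 1.8e-05). For spz the signals were 74.1, 127 and 85.1 in nub1 gut, against 215, 227 and 235 in nub1 carcass, and 75.6, 77.8 and 85.2 in wt gut, against 295, 265 and 272 in wt carcass. The tissues were fully separate, at -1.19 in nub1 flies and -1.68 in wt flies. The adaptor gene tub had 102, 135 and 108 in nub1 gut, against 212, 222 and 213 in nub1 carcass, and 106, 113 and 114 in wt gut, against 242, 245 and 248 in wt carcass. Pelle had 37.1, 39.8 and 31.0 in nub1 gut and 39.4, 37.02 and 43.6 in wt gut, below all carcass arrays given above. Tub and pll thus had -0.86 and -0.90 in nub1 flies and -1.08 and -1.32 in wt flies, where both were called. Quantile normalization ended the wt call of tub (-0.74) and the nub1 call of spz (-0.84), and a pseudocount of 32 also ended that of tub (-0.95). Without the arrays that carry ejaculatory duct transcripts, which leaves nub1 gut replicate 2 with its ovary transcripts, Tl (-0.97) and spz (-0.78) were no longer called in nub1 flies. The receptor 18w was lower in gut in nub1 flies (-1.52, adjusted p = 1.57e-05) and at the carcass level in wt flies (-0.07, adjusted p = 0.745), and GNBP3 had -1.21 in nub1 flies, where it was called, and -0.73 in wt flies. Myd88 went the other way, at 0.57 in nub1 flies (adjusted p = 0.0187) and 0.24 in wt flies (adjusted p = 0.279).

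Dorsal and cactus were both lower in gut, and more so in wt flies. For dl the values were -0.29 in nub1 flies and -1.14 in wt flies (SE 0.08 each, adjusted p = 0.00534 and 1.62e-07), and those for cact were -0.69 in nub1 flies and -1.26 in wt flies. The test of that gap is the difference in nub1 effect given above. The second dl probe set had 0.23 in nub1 flies and 0.56 in wt flies, and the second cact probe set had -0.41 and -0.02, so the wt calls rest on the brighter probe sets. Quantile normalization also ended the wt call of dl (-0.82). Dif was at -0.33 in nub1 flies and -0.05 in wt flies, neither with an adjusted p under 0.05. Nejire, a homologue of CBP, had 119, 82.4 and 98.3 in nub1 gut, against 197, 161 and 202 in nub1 carcass, and 84.0, 77.6 and 75.6 in wt gut, against 238, 220 and 230 in wt carcass. Its tissues did not overlap, at -0.85 in nub1 flies and -1.43 in wt flies (adjusted p = 9.1e-07), with an adjusted p of 0.0508 for the gap. In the JNK module none of the 4 genes was called, against 38.4% of all probe sets in nub1 flies and 39.7% in wt flies. Hep was at -0.73 in nub1 flies and -0.74 in wt flies, and puc at 0.76 in nub1 flies and 0.31 in wt flies. With common median scaling puc was called higher in nub1 gut (1.28).

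Toll pathway genes such as Tl and dl are also expressed in the ovary, for the dorsal-ventral axis of the embryo, and the carcass of a female holds the ovaries. Most but not all of the 7 genes that were lower in wt gut had their highest gut signals on the arrays with most ovary transcripts. Nub1 gut replicate 2, whose germline genes averaged 7.41 in log2 signal against 6.41 and 6.08 on replicates 1 and 3, had the highest nub1 gut signal for 6 of those 7 genes and for 15 of the 34. Wt gut replicate 3, at 6.91 against 5.92 and 6.75, had the highest wt gut signal for 5 of those 7 and for 14 of the 34. By contrast nej was lowest on nub1 gut replicate 2 and on wt gut replicate 3, and dl was lowest on wt gut replicate 3. Germline genes averaged 8.44 to 8.58 on the nub1 carcass arrays and 8.31 to 8.44 on the wt carcass arrays. Without nub1 gut replicate 2 and wt gut replicates 2 and 3, a choice made after the marker values were seen, 6 genes were called in nub1 flies and 9 in wt flies. This leaves 1 wt gut array, which is assumed to vary like the arrays of the other groups. The part of ovary RNA in the lower gut signals was not tested.

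**Figure D4:**
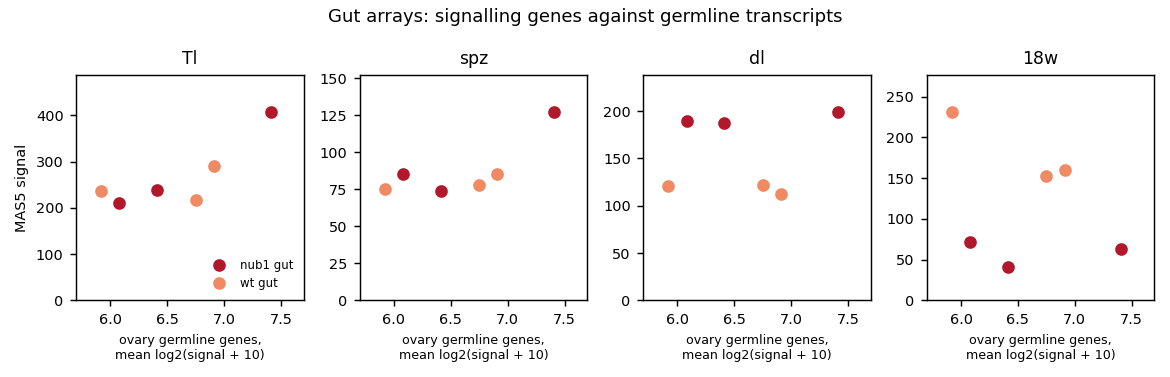
MAS5 signal of Tl, spz, dl and 18w (vertical axes) on the 6 gut arrays against the mean log2 signal of ovary germline genes on the same array (horizontal axis), nub1 gut in dark red and wt gut in orange. The nub1 gut array at 7.41 has the highest signal of Tl and spz, 407 and 127, while the nub1 and wt arrays are apart for dl and 18w wherever they lie on the horizontal axis.

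Other genes of the same pathways were read from lists named for their role. Of 10 measured other IMD genes none changed with nub1 in either tissue, beside 9.28% of all probe sets in gut and 4.71% in carcass. Of the other Toll genes 2 of 15 tested fell in nub1 gut and 0 of 11 in nub1 carcass, where 6.13% and 1.94% of all probe sets were called lower. These were the protease gene psh, with 12.9, 5.54 and 12.6 in nub1 gut, against 41.8, 29.4 and 31.2 in wt gut (log2 fold change -1.13, SE 0.18, adjusted p = 0.000436), and the Spätzle relative spz6 (-1.05, SE 0.25, adjusted p = 0.00734). Of the other JNK genes 2 of 13 fell in nub1 gut and 0 of 12 in nub1 carcass, beside the same shares. The kinase gene wnd had 72.2, 54.6 and 49.2 in nub1 gut, against 190, 168 and 158 in wt gut (-1.42, SE 0.14, adjusted p = 1.78e-05). Traf4, an adaptor of JNK signalling, had 39.8, 48.1 and 52.7 in nub1 gut, against 157, 92.7 and 107 in wt gut (-1.16, SE 0.18, adjusted p = 0.000423). For psh, wnd and Traf4 every nub1 gut array was below every wt gut array. Of 3 measured JNK targets apart from puc, none reached both thresholds in either tissue, beside the same 9.28% and 4.71% of all probe sets. Without the fold minimum, 2 were lower in nub1 gut and 1 higher in nub1 carcass, where 35.1% and 15.6% of all probe sets passed. Ilp8 had 228, 214 and 183 in nub1 carcass, against 439, 456 and 448 in wt carcass, which do not overlap. Its log2 fold change there was -1.07, without an adjusted p under 0.05. The spread in that fit is shared with its gut arrays, which ran from 1.85 to 138.

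Between the tissues the other JNK genes went both ways, and the shares of all probe sets to read the counts against are 15.6% higher and 22.7% lower in nub1 flies and 17.8% higher and 21.9% lower in wt flies. In wt flies 5 of 13 were higher in gut and 3 lower, among them Traf4 at 2.08, the TNF ligand gene egr at 1.39, the kinase gene slpr at -1.34 and the JNK gene bsk at 1.31. Of the other IMD genes in wt flies 1 of 10 was higher in gut and 3 lower, namely PGRP-LA at 2.10, POSH at -1.65, trbd at -1.53 and Duba at -1.27. Of the other Toll genes in wt flies 3 of 15 tested were higher in gut and 0 lower. Among them sphe, for a serine protease homologue, had signals under 10 on all wt carcass arrays and was at least 121-fold higher in wt gut. In nub1 flies the same lists had 1 of 13, 1 of 10 and 1 of 13 genes higher in gut and 0, 0 and 1 lower.

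Of the peptides and PGRPs that these pathways control, most of those measured were called in carcass. Of 20 listed target genes 11 had a probe set. Of these 1, PGRP-LB, was higher in nub1 gut and 9 were higher in nub1 carcass, against 3.15% and 2.77% of all probe sets. The median log2 fold change of the 11 genes in nub1 carcass was 2.0, beside -0.02 for all probe sets. PGRP-LB, a secreted amidase that degrades peptidoglycan and so damps IMD signalling, had 606, 547 and 573 in nub1 gut, against 274, 245 and 245 in wt gut, and 75.4, 42.3 and 35.6 in nub1 carcass, against 18.3, 14.8 and 13.1 in wt carcass. Like pirk, it was separate between the genotypes in both tissues, at 1.15 (adjusted p = 0.000614) in gut and 1.22 (adjusted p = 0.00082) in carcass. Defensin (Def) had 840, 539 and 196 in nub1 carcass, against 34.0, 25.2 and 42.7 in wt carcass. Its log2 fold change was 3.40 there, where the 7 IMD cascade genes lay between -0.22 and 0.31. All 11 target genes were highest on nub1 carcass replicate 1 and lowest on replicate 3 of the 3 nub1 carcass arrays, and so was pirk, whereas 9 of the 34 signalling genes had that order.

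The arrays of a group agreed closely for most of the 34 genes. The median coefficient of variation was 13.3% in nub1 gut, 7.78% in wt gut, 5.69% in nub1 carcass and 4.67% in wt carcass. The widest was 43.0% for pirk in nub1 carcass. In nub1 gut it was 37.3% for Tl, with 407 on replicate 2 against 239 and 210 on replicates 1 and 3. Replicate 2 is the nub1 gut array with most ovary transcripts, and their part in this spread was not tested.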

How the data were processed

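Total RNA of 12 samples was hybridized to Affymetrix Drosophila Genome 2.0 arrays. Whether gut and carcass of a genotype came from the same pools of flies is not stated, and the main fit did not pair them. The intensity values deposited by the authors are linear MAS5 signals from Affymetrix Expression Console (no version is given), scaled per array to a trimmed mean of 100, with no filter on probe sets. Array controls (183) were left out, leaving 18769 probe sets. The platform table, updated through Entrez id and RefSeq, pairs 13647 of them with 1 gene, 402 with several and 4720 with none. The brightest probe set stands for a gene.

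Signals were fitted as log2(signal + 10) in limma 3.58.1 (R 4.3.3), 4 groups in 1 model, with trended moderated variances and 8 residual degrees of freedom. Probe sets with a signal of at least 10 on all 3 arrays of a compared group were tested, and Benjamini-Hochberg adjustment ran over all of them. Genes at least 2-fold apart with an adjusted p under 0.05 are called changed. A bound on a fold is set against a signal of 10 per array. Contrasts were nub1 over wt in each tissue, their difference, and gut over carcass in each genotype. The p-values measure the spread between the 3 pools of a group. The fit was also run on simulated data, for the nub1 over wt contrasts alone, with changes above 2-fold put into bright probe sets. That run does not bear on smaller changes, dim genes or the other contrasts. Tables and plots were made with Python 3.11.15, numpy 2.4.6, pandas 2.3.3 and matplotlib 3.10.9.

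The genes, lists and tests were chosen with earlier results of these data known. Values are given per array for each gene changed in any contrast and for Rel, Dif, dl, imd, Tl, hep, pirk, casp, dnr1 and puc, and for the other lists at most 4 changed genes per comparison are named. Ilp8, which was not called with nub1, is named besides for its separate carcass arrays. Alternatives were the pseudocount, the filter, the scaling, the variance model, the samples fitted, the t-test of the methods, a replicate block, the probe set, the fold minimum and the arrays left out. The number of arrays limits the precision. No sequence or coordinate was used here.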

Additional observations from a re-analysis of the deposited data

Results flagged for a closer look

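For 4 genes the effect of nub1 differed between gut and carcass by the test of the difference itself (gut minus carcass, limma). Without the fold minimum this is 11.8% of the 34 genes, against 14% of all probe sets. The difference was 1.18 for pirk (SE 0.35, adjusted p = 0.0435), with a higher signal in nub1 than in wt on 3 of 3 arrays in both tissues. It was -1.45 for 18w (SE 0.26, adjusted p = 0.00408), which was lower on 3 of 3 nub1 arrays in gut and overlapped in carcass. It was 0.84 for dl (SE 0.12, adjusted p = 0.000763) and 0.57 for cact (SE 0.12, adjusted p = 0.00962), both under the 2-fold minimum and higher on 3 of 3 nub1 arrays in gut and lower on 3 of 3 in carcass. The second probe sets of dl and cact gave differences of -0.34 and -0.38. Groups of 3 arrays are too small for a check of single outlying arrays.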

How the results depend on the processing

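Of 170 results (34 genes in 5 comparisons), 74 had an adjusted p under 0.05. Over the alternatives these lost 38 calls, gained 27 and changed sign 12 times. The other 96 gained no call and changed sign 125 times. Without a fold minimum the counts of changed genes became 12 for nub1 over wt in gut, 4 in carcass, 4 for their difference, 28 for gut over carcass in nub1 flies and 26 in wt flies. A pseudocount of 1 gave 2 genes in carcass (pirk higher, GNBP3 lower) and 1 for the difference. The t-test of the methods gave 1 gene in gut (pirk) and 1 in carcass (GNBP3, lower). For the difference, 18w alone remained (1 gene) with no filter on dim probe sets, without the arrays with ejaculatory duct transcripts and without the 3 gut arrays with eggshell signal. Common median scaling gave 5 genes for gut over carcass in wt flies. Among results with an adjusted p under 0.05 it turned the sign of gut over carcass for Diap2 (0.22 in nub1 flies, 0.15 in wt flies), scny (0.19, 0.12) and Hel89B (0.25, 0.22), and in nub1 flies also for Tab2 (0.00) and dl (0.22). Among the others it turned 2 genes in nub1 flies and 5 in wt flies. Quantile normalization turned the sign for Hel89B (0.11 in nub1 flies, 0.03 in wt flies) and, in nub1 flies, for scny (0.03) and dl (0.00).

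Leaving out 1 array at a time gave 3 genes in gut, 0 to 1 in carcass, 1 to 2 for the difference, 5 to 6 for gut over carcass in nub1 flies and 8 to 10 in wt flies. In carcass the 1 gene was GNBP3 without nub1 carcass replicate 1 or wt carcass replicate 3, and pirk without nub1 carcass replicate 3 or wt carcass replicate 1. For the difference the pirk call was lost without any of nub1 carcass replicates 2 and 3, wt carcass replicates 1 and 2, nub1 gut replicates 1 and 3 and wt gut replicates 2 and 3. Same-numbered arrays did not deviate together (correlations -0.351 to 0.328 over group pairs), and the replicate block left the counts at 3, 0, 2, 5 and 9. The mean of the probe sets of a gene ended the calls of Tl (-0.52 in nub1 flies, -0.60 in wt flies) and the wt calls of cact (-0.64) and dl (-0.29) for gut over carcass. Signals near 10 limit what can be said of Dif, GNBP3 in nub1 gut and pirk in wt carcass.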
